A study of Homo sapiens with 21 samples.

Results

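HNRNPK binding in the cytoplasm was set against HNRNPK binding in the nucleus of KRT19 KO cells, gene by gene and by the part of the transcript that was bound. Genes were kept where the cytoplasmic and the nuclear PAR-CLIP library held 200 or more reads together, which left 5956 of the 15592 genes with a binding site in either library. The study asked how keratin 19 (K19, the product of KRT19) affects the RNAs bound by HNRNPK in MDA-MB-231 cells, a human triple-negative breast cancer line. Its 21 samples were RNA-seq libraries and 4 PAR-CLIP libraries of HNRNPK. The libraries described here came from MDA-MB-231 cells in which KRT19 was knocked out with CRISPR/Cas9. The nuclear preparation is not described in the methods used here. The cells were fed 4-thiouridine, crosslinked with UV light and then separated into a cytoplasmic and a nuclear fraction, and HNRNPK was precipitated with an antibody against HNRNPK/J. The parental cells without the knockout had their own cytoplasmic and nuclear library. Each fraction was represented by 1 library, so no replicate error could be estimated, no p-value was computed, and the intervals given cover counting error only.

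HNRNPK is an RNA-binding protein of the poly-C binding family. Its KH domains hold runs of cytosines in single-stranded RNA, and it moves between the nucleus, where it takes part in transcription and splicing, and the cytoplasm, where it binds mature mRNAs and affects their stability and translation. PAR-CLIP maps such contacts, because a crosslinked 4-thiouridine gives a T-to-C change in the sequenced cDNA, and a cluster of overlapping reads with such changes marks a binding site. Introns are spliced out in the nucleus, whereas the 3'UTR stays on the mRNA that is exported.

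The cytoplasmic library held 177530 clusters and the nuclear library 199119, of which 139125 and 149914 carried a gene name. Gene-assigned reads numbered 5495078 in the cytoplasm and 2562884 in the nucleus. No cluster had fewer than 5 reads, so a gene listed with 0 reads had no cluster of that size and was not shown to be unbound. Unique reads made up 45.6% of the cytoplasmic and 19.0% of the nuclear reads, and reads with a T-to-C change 59.6% and 76.7%. Class ratios from either kind of read alone are given at the end. Beyond that, the part of these differences in the results was not tested. KRT19 itself had 5 cytoplasmic and 0 nuclear reads, too few for a comparison. The markers of the cell line were bound in both fractions, with CD44 at 2293 cytoplasmic and 1413 nuclear reads and AXL at 1451 and 1000, while the blood markers PTPRC, CD3E and HBB had 0 reads in each. Of 5 luminal markers PGR had 0 reads in each, and ESR1 had 26 and 60, GATA3 15 and 8, CDH1 0 and 6 and EPCAM 7 and 0. As a check of the fractions, the nuclear RNA NEAT1 had a larger share of the nuclear reads (1267 cytoplasmic and 3551 nuclear reads) and ACTB mRNA a larger share of the cytoplasmic reads (702 and 5). Against the labels, the nuclear RNA MALAT1 had 5236 and 1783 reads and GAPDH mRNA 81 and 105. The amount of each RNA in the fractions was not measured alongside, so more binding to an RNA and more of that RNA cannot be told apart.

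Individual binding sites show what differed between the fractions. The sequences below are 30 nt around the mode of the cluster (the position with the strongest signal as the file gives it), on the transcript's strand and from the clusters as deposited on hg19 (GRCh37), with runs of 3 or more cytosines in capitals. Within the 3'UTR, intron and coding classes they were the sites with most reads among those 4-fold or more toward a fraction, or within 1.2-fold. The 3'UTR sites with most reads toward the cytoplasm lay in NUCKS1 (chr1:205683621-205683650, minus strand, 21287 cytoplasmic and 0 nuclear reads), PAWR (chr12:79985465-79985494, minus strand, 14554 and 0 reads) and ERH (chr14:69846942-69846971, minus strand, 12612 and 331 reads).
NUCKS1 3'UTR: tccataaattacacttttttttttcaaatt
PAWR 3'UTR: aaacaatatgtaagcagaaatagtactaaa
ERH 3'UTR: ttcatatctactttataacattcacatact
None of these 3 windows held a run of 3 cytosines. The clusters were 48, 96 and 61 nt long, so the windows show a part of each. T-to-C changes were in 37.9%, 44.1% and 50.5% of their cytoplasmic reads, beside 55.1% of all cytoplasmic 3'UTR reads.

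The 3'UTR sites with most reads toward the nucleus were CYTH2 (chr19:48985540-48985569, plus strand, 0 cytoplasmic and 788 nuclear reads) and a pair of neighbouring sites in BCL2L1, which encodes an inhibitor of apoptosis (chr20:30253257-30253286 and chr20:30253289-30253318, minus strand, 0 cytoplasmic and 694 and 510 nuclear reads). The sites in CPSF7 (chr11:61172062-61172091, minus strand, 702 and 348 reads) and TNFRSF12A (chr16:3071830-3071859, plus strand, 541 and 246 reads) took like shares of the 2 libraries, and their log2 ratios were -0.09 and 0.03.
CYTH2 3'UTR: aaaactttatattaaaatcctaaCCCCCag
BCL2L1 3'UTR, first site: ggttCCCtttccttccatCCCtaCCCCCta
BCL2L1 3'UTR, neighbouring site: cattttCCCCCCactctCCCCacactaacc
CPSF7 3'UTR: ccttCCCtttcctccaaaCCCCtaactCCC
TNFRSF12A 3'UTR: atgtgCCCCCtgccagccggggctcgCCCa
All 5 of these windows held at least 1 run of 3 or more cytosines, and the CPSF7 window and the first BCL2L1 window held 3.

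Among intron sites the leading cytoplasmic site lay in MRPL19 (chr2:75885117-75885146, plus strand, 5690 and 0 reads), which encodes a protein of the mitochondrial ribosome, and another lay in C16orf72 (chr16:9199764-9199793, plus strand, 2884 and 203 reads). The leading nuclear intron sites lay in EWSR1, an RNA-binding protein gene (chr22:29686847-29686876, plus strand, 741 nuclear reads), DNAJC5 (chr20:62535639-62535668, plus strand, 185 and 581 reads) and UBE2K (chr4:39715316-39715345, plus strand, 149 and 518 reads).
MRPL19 intron: tttctcatcaCCCCaaactgaaactctgta
C16orf72 intron: ttttttCCCCttccttaCCCCtaCCCCCat
EWSR1 intron: agtccaattcatatttCCCtctCCCCtctt
DNAJC5 intron: aattaCCCttttttCCCCaaaattacctct
UBE2K intron: caatattactaactCCCtatCCCCCtacca
Each of the 3 nuclear intron windows held 2 runs of cytosines. Their log2 ratios, -2.81, -2.75 and -2.89, stood closer to 0 than the 4.15 of the ERH site.

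In coding sequence the leading cytoplasmic sites were in EIF4G2, a translation initiation factor (chr11:10821178-10821207, minus strand, 4151 and 81 reads, log2 ratio 4.56), and ATF4, the transcription factor of the stress response (chr22:39918015-39918044, plus strand, 2682 and 241 reads, log2 ratio 2.37). The IRS1 site (chr2:227661852-227661881, minus strand), in the gene for an insulin receptor adaptor, had 2690 cytoplasmic and 0 nuclear reads. SRCAP (chr16:30748765-30748794, plus strand), which encodes a chromatin remodeller, was bound at equal shares, with 706 and 360 reads.
EIF4G2 coding: agcaaataaagttggatccatCCCCtcaaa
ATF4 coding: CCCCCttcaccttcttacaacctcttCCCC
IRS1 coding: ctcactcggcaggcacatCCCCtaccatta
SRCAP coding: ttcagCCCCaaatccaataaccattctCCC
The coding sites with most reads toward the nucleus were all on the mitochondrial genome, in MT-ND5 (8497 nuclear reads), MT-ATP6 (5811) and MT-ND2 (3823), and none of these had a cytoplasmic cluster.

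The part of the transcript bound differed most between the fractions. Of the cytoplasmic gene-assigned reads, 53.6% (95% Wilson interval 53.6 to 53.7%) lay in 3'UTRs and 26.0% (26.0 to 26.1%) in introns. Of the nuclear reads, 6.89% (6.86 to 6.93%) lay in 3'UTRs and 75.7% (75.7 to 75.8%) in introns. The 3'UTR share was thus 7.78-fold higher in the cytoplasm (log2 ratio 2.96) and the intron share 2.91-fold higher in the nucleus (log2 ratio -1.54). Counted as clusters, 20.4% of cytoplasmic and 5.37% of nuclear gene-assigned clusters were in 3'UTRs, and 63.4% and 82.1% were in introns, so that introns held most sites in both fractions and the log2 ratio for introns shrank to -0.37. A cytoplasmic 3'UTR cluster held 104 reads on average and a nuclear one 21.9.

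Coding sequence took 6.65% of cytoplasmic and 5.55% of nuclear reads, a log2 ratio of 0.26. Mitochondrial transcripts supplied 23.7% of cytoplasmic and 64.3% of nuclear coding reads, and for nuclear-encoded genes the coding share was 5.07% in the cytoplasm and 1.98% in the nucleus, 2.56-fold apart. With clusters of at least 2 conversion positions the coding ratio turned to -0.48. Among small RNAs, snoRNAs, which guide chemical modification of ribosomal RNA in the nucleolus, took 0.0201% of cytoplasmic and 0.276% of nuclear reads. The class of miscellaneous RNAs took 0.605% and 0.0261%. RNY1, a Y RNA bound by the Ro protein, had 31897 and 85 reads and supplied most of the cytoplasmic reads of that class. The 5'UTR shares were 2.99% and 0.488%, and the cytoplasmic one rested largely on MTRNR2L12. Its site on chromosome 3 had 123973 cytoplasmic reads, and the overlapping nuclear cluster of 17961 reads carried no gene name and is not in the nuclear share. At that site itself the log2 ratio was 1.69, and the value of the gene as labelled is not a difference in binding.

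**Figure D1:**
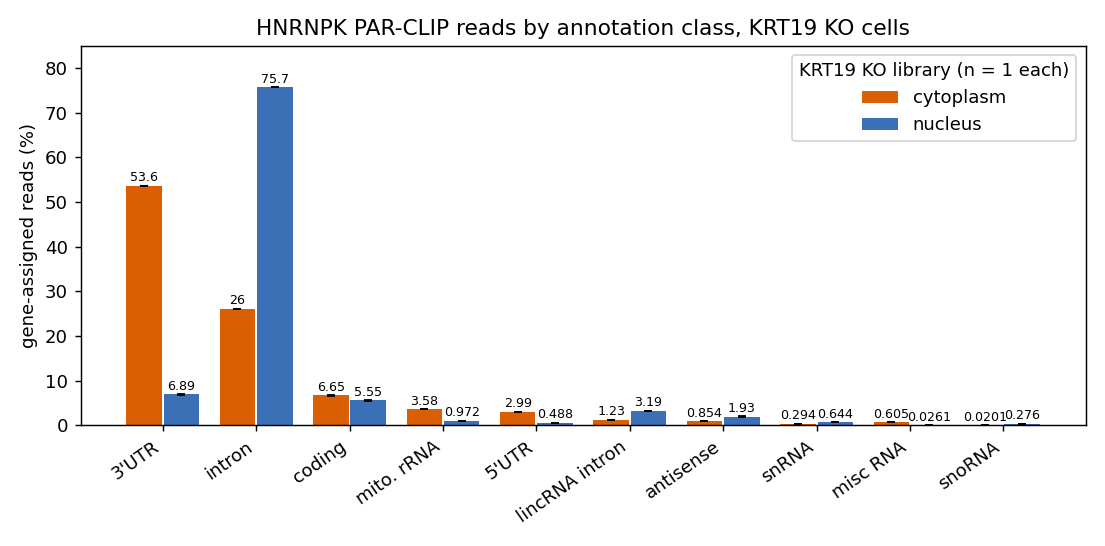
Share of gene-assigned reads (y axis, %) in 10 annotation classes for the cytoplasmic and the nuclear KRT19 KO library, 1 library each, with 95% Wilson intervals as error bars. The 3'UTR bars stand at 53.6 and 6.89% and the intron bars at 26.0 and 75.7%.

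Gene by gene, a ratio was formed from each gene's share of the gene-assigned reads in either library, with 1 read added, and is given as log2 of cytoplasm over nucleus. Of the 5956 genes, 1553 were 2-fold or more higher in the cytoplasm (26.1%) and 2324 were 2-fold or more higher in the nucleus (39.0%), and the remaining 2079 lay within 2-fold. The median was -0.52 and the middle 50% ran from -1.51 to 1.09. Centred on that median, 1962 genes were higher in the cytoplasm and 1466 in the nucleus, so the cytoplasmic share of the calls moved from 40.1 to 57.2% with the choice of zero. For 1348 of the cytoplasmic and 1946 of the nuclear genes the whole 95% interval of the ratio, from an exact binomial, lay past 2-fold. Of all genes, 198 were 16-fold or more higher in the cytoplasm and 39 in the nucleus, which includes 69 genes with no nuclear and 10 with no cytoplasmic cluster. The folds of those depend on the 1 read added, and the nuclear library held fewer reads. The 250 genes just inside the threshold of 200 reads had a median log2 ratio of -0.87 and the 291 genes just outside it one of -1.16.

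The genes were next described by the class that held most of their reads. That class was taken from the reads of both libraries together, which also give the ratio, so the split is partly fixed by the direction and is a description only. Of 1995 genes led by 3'UTR reads, 1270 (63.7%) were higher in the cytoplasm and 33 (1.65%) in the nucleus. Of 3300 genes led by intron reads, 109 (3.30%) were higher in the cytoplasm and 2017 (61.1%) in the nucleus. Genes led by coding reads had 65 of 145 higher in the cytoplasm and 13 in the nucleus, and genes led by lincRNA exons 24 and 5 of 38. Genes higher in the cytoplasm had their reads at fewer places, with a median of 15 sites and 48.3% of the reads in the leading site, against 32 sites and 13.1% for genes higher in the nucleus. They were also shorter: the median gene span in GENCODE was 28.0 kb for genes higher in the cytoplasm, 63.4 kb for those within 2-fold and 103 kb for those higher in the nucleus (spans were found for 92.3, 91.1 and 89.1% of them). That order held among intron-led genes (31.3, 76.9 and 109 kb) but not among 3'UTR-led genes (28.3, 50.6 and 21.2 kb, the last from 30 genes). Median 3'UTR lengths were 2527, 2259 and 1577 nt in the same order over all genes. They were 2714, 2843.5 and 1714 nt among 3'UTR-led genes and 1501, 1993 and 1583 nt among intron-led genes.

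**Figure D2:**
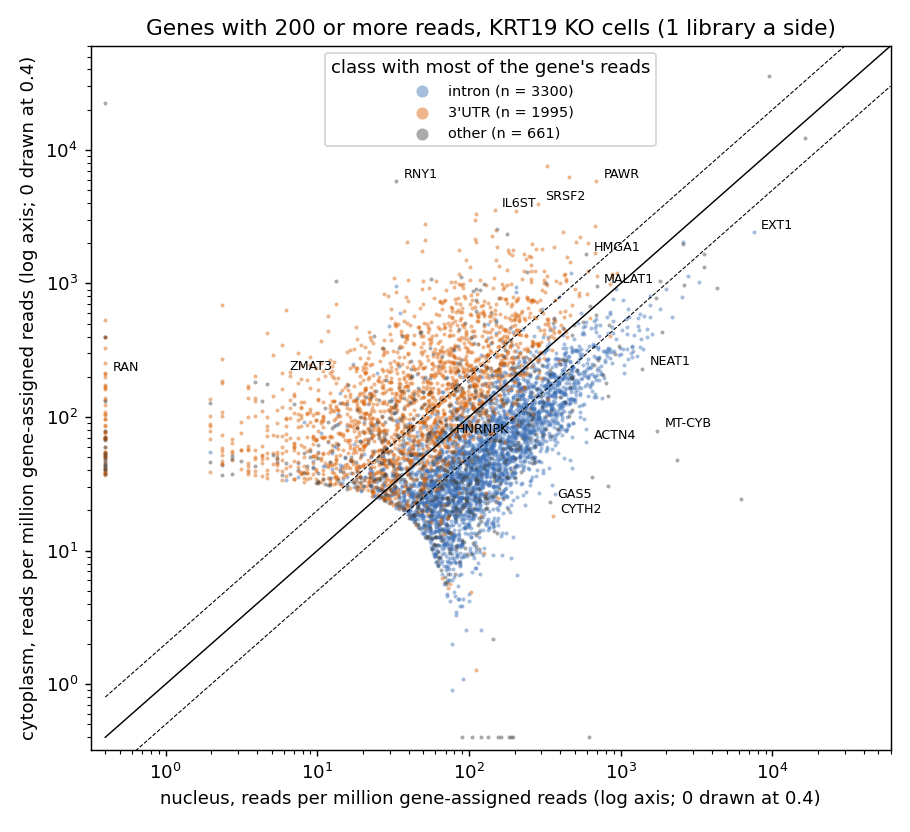
Normalised read count (RPM, scaled to gene-assigned reads) in the nucleus (x axis) and the cytoplasm (y axis), both log axes with 0 drawn at 0.4, for the 5956 genes with 200 or more reads, coloured by the class with most of the gene's reads. The solid line marks equal shares and the dashed lines 2-fold; 1270 of the 1995 3'UTR-led genes lie above the upper dashed line and 2017 of the 3300 intron-led genes below the lower one.

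The same gene was often bound in its 3'UTR in the cytoplasm and in its introns in the nucleus. In 2980 genes both classes had 50 or more reads, and the 3'UTR log2 ratio was above the intron log2 ratio in 2901 of them (97.3%, 95% Wilson interval 96.7 to 97.9%). The median was 3.09 for 3'UTR reads and -1.70 for intron reads, and the median difference of 4.79 corresponds to 27.6-fold. With 5 reads, the smallest cluster, in place of the 0 nuclear 3'UTR reads of 690 of these genes, the 3'UTR median was 2.90. Of the 2980 genes, 2437 had the 3'UTR 2-fold or more higher in the cytoplasm. In 2338 of them the introns were 2-fold or more higher in the nucleus, and both held in 1881.

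**Figure D3:**
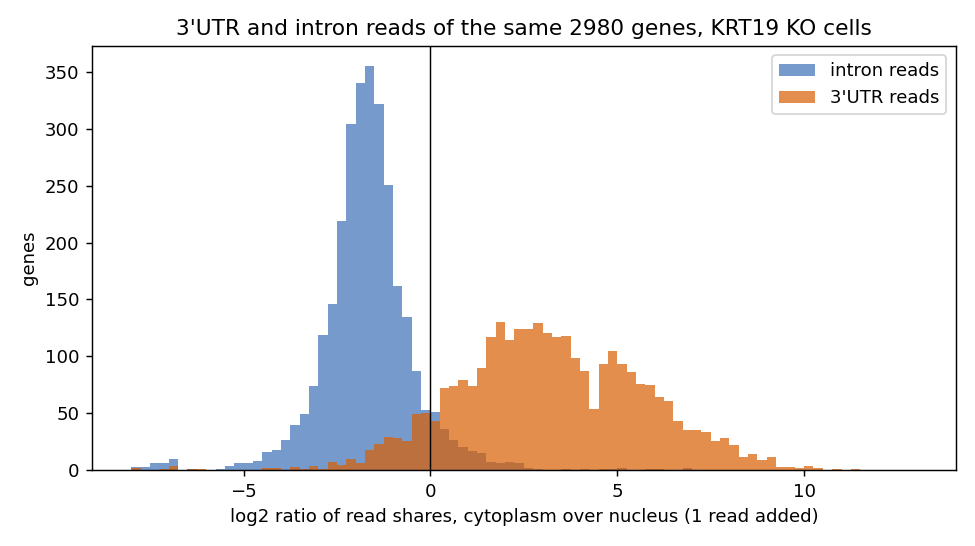
Number of genes (y axis) by the log2 ratio of read shares, cytoplasm over nucleus (x axis), for intron and for 3'UTR reads of the same 2980 genes. The intron distribution centres on -1.70 and the 3'UTR distribution on 3.09.

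The genes with the largest difference between the 3'UTR and intron ratios, chosen for it, had no nuclear 3'UTR cluster and had intron reads in both fractions. TPM4, a tropomyosin of the actin cytoskeleton, had 2733 cytoplasmic and 0 nuclear 3'UTR reads but 76 cytoplasmic and 144 nuclear intron reads. DDX21, a nucleolar RNA helicase, had 2435 and 0 reads in the 3'UTR and 82 and 175 in introns. For CD2AP, an adaptor of the actin cytoskeleton, the 3'UTR counts were 2543 and 0 and the intron counts 362 and 587. RAB31, a small GTPase of vesicle traffic, had 1683 and 0 against 113 and 247, and the transcription factor gene ZFHX3 had 903 and 0 against 76 and 356. At the level of the whole gene these opposite parts cancelled in ZFHX3, whose log2 ratio was 0.55.

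The opposite order was rare. Among genes with 200 or more reads in each class, MSANTD4 and SIX4 differed most in that direction: MSANTD4 had 245 cytoplasmic and 0 nuclear intron reads against 212 and 21 in the 3'UTR, and SIX4, a homeobox gene, 251 and 0 against 251 and 11. MAPRE1, which encodes a protein of growing microtubule ends, had 762 and 206 intron reads against 605 and 344 in the 3'UTR. As log2 ratios of shares MAPRE1 stood at 0.78 in introns and -0.29 in the 3'UTR.

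Of the 10 genes with the most reads, 5 were mRNAs bound mainly in the 3'UTR and higher in the cytoplasm. NUCKS1, a chromatin-associated protein gene, had 34351 cytoplasmic and 1176 nuclear reads (log2 ratio 3.77, 95% interval 3.68 to 3.85). PAWR, a regulator of apoptosis, had 31935 and 1771 reads (3.07), and IL6ST, the shared receptor subunit of the interleukin 6 family, 19386 and 380 (4.57, interval 4.43 to 4.72). SRSF2, a splicing factor, had 21674 and 734 reads (3.78, interval 3.68 to 3.89), of which 21648 and 734 were in the 3'UTR. In YWHAZ, a 14-3-3 protein gene, 1 site held 92.0% of the reads, and the log2 ratio was 4.52. With the leading site of every gene left out of counts and library totals, YWHAZ was at 1.56. All log2 ratios given here without a leading site were formed in that way. They thus also carry the change in the totals. EXT1, a glycosyltransferase gene, was the intron-bound counterpart, with 13300 and 19228 reads spread over 583 sites (log2 ratio -1.63), of which 12761 and 19044 were in introns.

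Genes with 1000 or more reads at several sites were then ranked by their ratio, keeping those that stayed past 2-fold without their leading site. At the cytoplasmic end all 10 genes, MTRNR2L12 with its label among them, had no nuclear cluster, so that no fold is given. GRPEL2, a cofactor of the mitochondrial Hsp70, had 2921 cytoplasmic and 0 nuclear reads at 10 sites. RAN, the GTPase of nuclear transport, had 1147 and 0 at 11 sites, and CFL2, an actin-severing cofilin, 1092 and 0 at 9 sites. JTB had 2182, IFIT5, an interferon-induced RNA-binding protein, 2176, MIS12, a kinetochore component, 1792, and PGAM5, a mitochondrial phosphatase, 1385 cytoplasmic reads, again with 0 nuclear reads. In these 7 genes between 1092 and 2921 cytoplasmic reads were in the 3'UTR.

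At the nuclear end stood mRNAs bound in introns, mitochondrial mRNAs and the snoRNA host GAS5. ACTN4, an actin crosslinker, had 356 cytoplasmic and 1522 nuclear reads at 79 sites (log2 ratio -3.19, interval -3.37 to -3.03), of which 327 and 1376 were in introns. GARS, the glycyl-tRNA synthetase, had 145 and 949 reads (-3.80), LAMA5, a laminin chain of the basement membrane, 229 and 1220 (-3.51), and CIT, a kinase of cytokinesis, 272 and 1075 (-3.08). MICAL3, VAV2 and TSPAN4 followed the same pattern, with log2 ratios of -3.27, -3.02 and -3.48. GAS5, whose introns carry snoRNAs, had 127 and 878 reads (-3.88). Among these, leaving out the leading site moved GAS5 to -2.17 and GARS to -2.56, and ACTN4 to -2.64.

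Mitochondrially encoded genes took similar shares of both libraries, 5.21% of cytoplasmic and 4.62% of nuclear reads. Of the 13 members, 1 was 2-fold or more higher in the cytoplasm and 8 in the nucleus, beside 26.1 and 39.0% of all genes. Their median was -2.52, beside -0.52 over all genes. MT-RNR2, the large ribosomal RNA, had 196919 and 24434 reads (1.91), and MT-ND2, a subunit of complex I, 67698 and 42100 (-0.42). The cytochrome b gene MT-CYB had 432 and 4461 reads (-4.47), and MT-CO1, a subunit of cytochrome oxidase, 195 and 1669 (-4.19). The borders of clusters affected these values: 1 cytoplasmic cluster of 715 nt (mitochondrial positions 3108 to 3822, 103402 reads) was labelled MT-RNR2, whereas the nuclear reads under its end were called as clusters of MT-ND1, which had 134 and 15783 reads as labelled. Over that stretch as a whole the log2 ratio was 1.61, so the value of -7.97 for MT-ND1 followed the labels.

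Genes for RNA-binding proteins of the same families as HNRNPK divided by the class bound. HNRNPK mRNA itself had 393 cytoplasmic and 189 nuclear reads, a log2 ratio of -0.05 (interval -0.30 to 0.21), with 207 and 86 in the 3'UTR, 114 and 103 in introns and 59 and 0 in coding sequence. Among its poly-C binding relatives, PCBP1, an intronless gene, was higher in the cytoplasm with 746 and 57 reads (2.59). PCBP2 had 791 and 901 (-1.29), of which 495 and 796 were in introns, and PCBP3 102 and 236 (-2.30), all in introns. Of 24 hnRNP genes, 8 were higher in the cytoplasm and 6 in the nucleus, with a median of 0.27, where 26.1 and 39.0% of all genes were called and the median was -0.52. HNRNPAB had 2139 and 99 reads (3.32), and HNRNPA0 had no nuclear cluster. HNRNPM had 278 and 490 reads (-1.92), with 115 and 325 in introns.

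The SR splicing factors, which bind exonic enhancers, had 4 of 10 members higher in the cytoplasm and 1 in the nucleus (26.1 and 39.0% of all genes). SRSF1 had 12514 and 362 reads (4.01), nearly all in the 3'UTR, next to the SRSF2 values above. SRSF4 had 500 and 765 reads (-1.71), of which 425 and 748 were in introns, and TRA2B 939 and 796 (-0.86). Over 9 members with enough 3'UTR reads the median 3'UTR log2 ratio was 3.08, and over 6 with enough intron reads the median intron ratio was -1.96. Of 9 genes of the microRNA machinery, 0 were higher in the cytoplasm and 5 in the nucleus, again beside 26.1 and 39.0% of all genes. AGO2, the small-RNA guided slicer, had 257 and 601 reads (-2.32), and DICER1, which cuts microRNA precursors, 700 and 347 (-0.09).

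Lists of signalling and cell cycle genes held both directions, and their counts stand beside 26.1% of all genes higher in the cytoplasm and 39.0% in the nucleus. RAB GTPases, which direct vesicle traffic, had the largest share toward the cytoplasm among the protein-coding lists of 10 or more members: 16 of 25 were higher in the cytoplasm and 2 in the nucleus, with a median of 1.36. RAB33B had 638 and 17 reads (4.05) and RAB27B 4256 and 151 (3.71), while RAB28 had 530 and 908 (-1.88) and RAB1A 834 and 930 (-1.26). RAB1A still had 298 cytoplasmic and 0 nuclear 3'UTR reads beside 288 and 628 in introns. Of 17 genes of TGF-beta and SMAD signalling, 8 were higher in the cytoplasm and 5 in the nucleus (median 0.99). BMPR2, a type II BMP receptor, had 3799 and 316 reads (2.48), and SKIL, a SMAD corepressor, 794 and 39 (3.21). ACVR1, a type I receptor, had 39 and 182 (-3.29).

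Of 18 genes of the G1 cell cycle, 7 were higher in the cytoplasm and 3 in the nucleus (median 0.39), beside 26.1 and 39.0% of all genes. CCND1, which encodes cyclin D1, had 11781 cytoplasmic and 281 nuclear reads (4.28, interval 4.12 to 4.47), and CDKN1B, an inhibitor of cyclin-dependent kinases, 913 and 9 (5.41, interval 4.63 to 6.70). E2F6 had 120 and 262 reads (-2.22). Of 17 genes of the p53 network, 3 were higher in the cytoplasm and 6 in the nucleus (median 0.01), the latter close to the 39.0% of all genes. ZMAT3, an RNA-binding protein induced by p53, had 1170 and 15 reads (5.09, interval 4.46 to 6.03), of which 1159 and 5 were in the 3'UTR, and RRM2B, a ribonucleotide reductase subunit, 732 and 57 (2.56). USP7, a deubiquitinase of this network, had 136 and 326 (-2.36). Of 29 MAP kinase genes, 6 were higher in the cytoplasm and 8 in the nucleus, both below the shares over all genes. Among them was DUSP6, a phosphatase of ERK, at 729 and 79 reads (2.09) of which 533 and 0 were in coding sequence. Of 18 Hippo pathway genes, 4 were higher in the cytoplasm and 2 in the nucleus. VGLL3 had 1979 and 60 reads (3.92), MOB1A 7243 and 261 (3.69) and TEAD4 220 and 584 (-2.50).

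Genes of the cytoskeleton and the cell surface held both directions. ACTB, cytoplasmic actin, had 702 cytoplasmic and 5 nuclear reads (5.77, interval 4.80 to 7.66), with 449 in coding sequence and 253 in the 3'UTR, and DSP, a plaque protein that anchors keratin filaments, 965 and 12 (5.12). Of 19 actin and adhesion genes, 5 were higher in the cytoplasm and 6 in the nucleus, near the 26.1 and 39.0% of all genes, and MYH9, a nonmuscle myosin, had 386 and 782 reads (-2.12). Of 8 keratin, vimentin and lamin genes, 3 were higher in the cytoplasm and 2 in the nucleus, with KRT80 at 1675 and 123 reads (2.66) and KRT7 at 80 and 183 (-2.28). Integrins had 0 of 6 higher in the cytoplasm and 3 in the nucleus. Among these, ITGB1 had 409 and 804 reads (-2.07), of which 385 and 804 were in introns. Of 10 collagen and matrix genes, 7 were higher in the nucleus and 1 in the cytoplasm, THBS1, a secreted glycoprotein, with 6781 and 697 reads (2.18).

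In several other protein-coding lists more members were higher in the nucleus than in the cytoplasm, as over all genes (39.0 and 26.1%, median -0.52). Receptor tyrosine phosphatases had 6 of 8 members higher in the nucleus and 0 in the cytoplasm (median -1.66), kinesins 11 and 3 of 19 (median -1.06), DEAD and DEAH box helicases 13 and 3 of 24 (median -1.34), and ubiquitin-specific proteases 17 and 3 of 31 (median -1.11). PTPRS had 26 cytoplasmic and 258 nuclear reads (-4.36). KIF5B, a motor of the kinesin family, was among the exceptions with 2065 and 332 reads (1.53), and so was USP1, a deubiquitinase of DNA repair, with 1807 and 88 (3.24). Proteasome subunits had 10 of 20 higher in the nucleus and 4 in the cytoplasm, and PSMD12 was among the latter with 6522 cytoplasmic reads (3.79). Cytosolic ribosomal protein mRNAs were bound at low counts: 66 of 79 had a cluster but only 13 reached 200 reads, of which 3 were higher in the cytoplasm and 7 in the nucleus. Initiation factors of the eIF4 group had 3 of 9 on each side.

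Nuclear-encoded genes of the respiratory chain had 4 of 15 higher in the cytoplasm and 7 in the nucleus (median -0.88), near the 26.1 and 39.0% of all genes. Genes of ER translocation and glycoprotein handling had 8 of 22 on each side, with SSR1, a subunit of the translocon-associated complex, at 9744 and 221 reads (4.36). PDIA6, a protein disulfide isomerase, had 5107 and 140 reads (4.08), but 1 site held 97.1% of them and the rest gave -1.03. The oncofetal genes HMGA2 and IGF2BP2 were bound mainly in introns, with 4390 and 3996 reads (-0.96) and 1712 and 2331 (-1.55). HMGA2 had 1266 and 125 reads in the 3'UTR beside 3116 and 3871 in introns. HMGA1 had 9083 and 1520 reads (1.48), of which 1 coding site held 96.3%. Genes of ZNF-named zinc finger proteins had 53 of 167 higher in the cytoplasm and 39 in the nucleus (median 0.28).

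**Figure D4:**
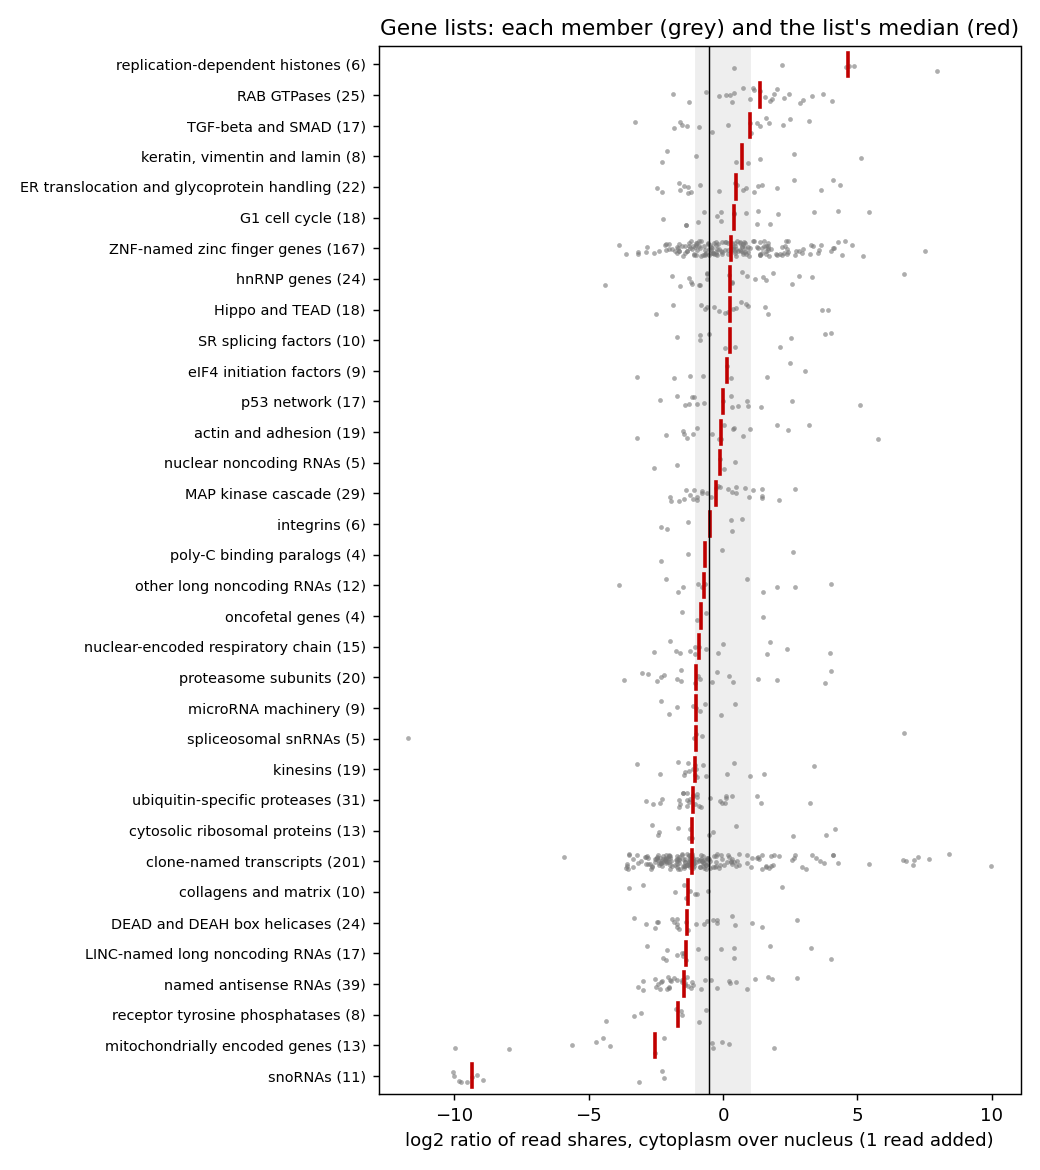
Log2 ratio of read shares, cytoplasm over nucleus (x axis), for every member of each gene list (grey points, number of members in brackets) with the list's median (red). The black line marks the median of all 5956 genes, -0.52, and the grey band 2-fold. All 11 snoRNAs lie to the left of the band and 5 of 6 replication-dependent histones to its right; values of genes with 0 reads in a library depend on the 1 read added.

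Noncoding RNAs went both ways, and their counts stand beside 26.1% of all genes higher in the cytoplasm and 39.0% in the nucleus. All 11 snoRNAs were higher in the nucleus, and of these SNORD21 had 0 cytoplasmic and 499 nuclear reads and SNORA71C 142 and 323. NEAT1, the scaffold of paraspeckles, had 1267 and 3551 reads (-2.59), and KCNQ1OT1, a silencing RNA, 357 and 542 (-1.70). MALAT1, a nuclear speckle RNA, had 5236 and 1783 (0.45), and the value without its leading site was -0.64. RMRP and RPPH1, the RNAs of RNase MRP and RNase P, were at 0.05 and -0.13, but the leading site held 73.3 and 78.5% of their reads. Without that site RMRP had 216 cytoplasmic and 0 nuclear reads, and RPPH1 had 0 and 53. Named antisense RNAs had 27 of 39 members higher in the nucleus and 4 in the cytoplasm (median -1.44), and LINC-named RNAs 9 and 3 of 17 (median -1.40). LINC00657, also known as NORAD, a cytoplasmic RNA that binds Pumilio proteins, had 280 and 7 reads (4.03), and SNHG16 467 and 33 (2.68). PVT1 had 2374 and 4783 (-2.11). Of 6 replication-dependent histone genes, 5 were higher in the cytoplasm, among them HIST1H4K with 535 and 0 reads at 1 site. Without the leading site 3 of these 5 turned direction (HIST1H2BK to -1.67, HIST1H2BJ to -3.12 and HIST1H2BD to -1.03), and the other two had a single site. The spliceosomal RNAs RNU4-2 and RNU4-1 had 9145 and 9093 (-1.09) and 5726 and 4640 reads (-0.80). Near-identical copies exist for histone, snRNA and snoRNA genes, so the assignment of these reads to a copy is uncertain.

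Site by site, most places had a cluster in a single library. The smallest cluster had 5 reads, and the median cluster had 10 in the cytoplasm and 11 in the nucleus. A site without a cluster in a library was thus not shown to be unbound there. Clusters of both libraries that overlapped on the same strand were joined into 337704 sites, of which 38868 had reads in each library, 138652 only in the cytoplasm and 160184 only in the nucleus. The shared sites held 48.5% of cytoplasmic and 35.03% of nuclear reads. At 4149 shared 3'UTR sites the median log2 ratio was 1.42, with 2373 sites 2-fold or more higher in the cytoplasm and 432 in the nucleus. At 24018 shared intron sites the median was -1.39, with 639 higher in the cytoplasm and 15517 in the nucleus. These counts depend on the depth of the site. Of 2242 shared intron sites with 100 or more reads, 292 were higher in the cytoplasm and 1172 in the nucleus (median -1.09). For 2313 shared 3'UTR sites with 100 or more reads the counts were 1957 and 38 (median 2.56).

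Sites toward the nucleus held cytosine runs more often than sites toward the cytoplasm of the same class. The word CCC was searched on the sense strand in the 21 nt around the mode, in sites with 50 or more reads. In 3'UTRs it was present in 29.0% (95% Wilson interval 28.0 to 30.04%) of 7520 sites higher in the cytoplasm, 49.8% (46.0 to 53.6%) of 671 sites within 2-fold and 64.5% (58.7 to 69.9%) of 276 sites higher in the nucleus. In introns the shares were 39.6% (37.5 to 41.7%) of 2083, 49.4% (47.4 to 51.4%) of 2423 and 61.1% (59.9 to 62.4%) of 6036 sites. In coding sequence they were 46.2% (42.8 to 49.6%) of 823, 51.1% (44.7 to 57.4%) of 237 and 69.8% (60.5 to 77.7%) of 106 sites. The stricter word CCCC was in 10.1, 21.3 and 30.1% of these 3'UTR sites and in 14.0, 18.4 and 26.4% of the intron sites. UUUU (TTTT in the genome) did not follow that order, with 32.4, 26.1 and 28.3% in 3'UTRs.

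**Figure D5:**
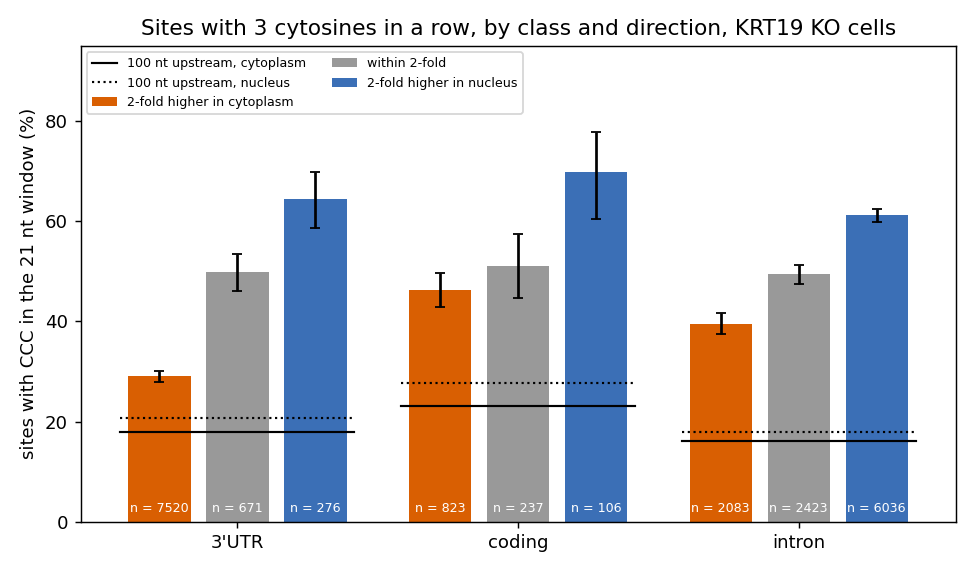
Share of sites (y axis, %) whose 21 nt window holds CCC, for 3'UTR, coding and intron sites with 50 or more reads, by the direction of the site, with 95% Wilson intervals and the number of sites in each bar. Lines mark the share in windows 100 nt upstream of all clusters of the class in the cytoplasmic (solid) and nuclear (dotted) library; in 3'UTRs the bars stand at 29.0, 49.8 and 64.5% and the lines at 17.9 and 20.7%.

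Over all clusters the same words were above their surroundings in both fractions. CCC was in 28.1% of cytoplasmic and 41.8% of nuclear 3'UTR windows, beside 17.9 and 20.7% in windows of the same length 100 nt upstream, and in 35.5 and 40.04% of intron windows, beside 16.2 and 17.9%. Weighted by reads and searched in the whole cluster, the fractions were closer in 3'UTRs and introns. Clusters with CCC held 51.0 and 56.6% of 3'UTR reads, 48.7 and 50.7% of intron reads and 69.9 and 84.1% of coding reads. UUCCC, which is one of the words that contain CCC, was in 7.47 and 12.9% of 3'UTR windows (2.73 and 2.84% upstream) and in 11.2 and 12.8% of intron windows (2.26 and 2.56% upstream). In coding sequence UUUU was in 7.19 and 7.72% of windows and in 15.9 and 13.9% upstream. Guanine made up 10.2% of cytoplasmic and 6.48% of nuclear 3'UTR windows, and 4.18 and 5.10% of intron windows, beside 19.5 to 21.01% upstream of these. RNase T1, used to trim the RNA, cuts after guanine, and its part in these shares was not tested.

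Position within the transcript separated the fractions less than class did. The mode of an intron site lay within 100 nt upstream of an annotated 3' splice site in 1.70% (1.62 to 1.79%) of sites with a cytoplasmic cluster and 2.58% (2.49 to 2.67%) of sites with a nuclear cluster. Within 100 nt downstream of a 5' splice site the shares were 1.93 and 2.26%. Among sites with 50 or more reads the order at the 5' splice site was the reverse, with 3.07% (2.41 to 3.90%) of sites higher in the cytoplasm and 1.99% (1.66 to 2.37%) of those higher in the nucleus, and the shares at the 3' splice site were 2.06% (1.54 to 2.77%) and 2.203% (1.86 to 2.60%). Intron sites with 50 or more reads that were higher in the cytoplasm lay a median of 3570 nt from the next 3' splice site, and those higher in the nucleus 5122 nt. In 3'UTRs that lie in 1 exon, the median position was 42.6% of the way from the stop codon to the end for cytoplasmic sites and 43.5% for nuclear sites. The last 100 nt held 2.43% (2.10 to 2.82%) of the sites higher in the cytoplasm and 8.51% (5.58 to 12.8%) of those higher in the nucleus, where 84.8% of the latter could be placed and the median 3'UTR was 2529 nt against 3246 nt.

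Some genes combined a leading class with the less common direction; since the class came from the pooled reads, their small number is partly fixed by the way they were counted. Of the 33 genes led by 3'UTR reads and higher in the nucleus, BCL2L1 had the most reads, with 2219 and 2168 (log2 ratio -1.07, interval -1.15 to -0.98), 1583 and 1204 of them in the 3'UTR. With the leading site of every gene left out of counts and totals, BCL2L1 was at 0.05. CYTH2, an exchange factor for ARF GTPases, had 99 and 917 reads (-4.30), and its site shown above held 77.6% of them. Of the 109 genes led by intron reads and higher in the cytoplasm, MRPL19 had the most, with 14103 and 393 reads (4.06), 13727 and 393 in introns, and it stayed at 3.88 without its leading site.

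In the parental cells the 3'UTR share was also higher in the cytoplasm and the intron share higher in the nucleus, although introns and not 3'UTRs held most of their cytoplasmic reads. Their 3'UTR share was 37.8% in the cytoplasm and 6.42% in the nucleus, and their intron share 50.6 and 80.4%, also with 1 library each. Of the 5145 KRT19 KO genes with 200 or more parental reads, 1209 were higher in the cytoplasm in KRT19 KO cells. Of these, 802 (66.3%) were also higher in the cytoplasm in parental cells, where 969 of all 5145 were. For the nucleus the numbers were 2101, 975 (46.4%) and 1299. Whether the KRT19 KO and parental contrasts differ was not tested, since each fraction had 1 library.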

How the data were processed

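HNRNPK PAR-CLIP was analysed for the cytoplasmic and nuclear fraction of KRT19 KO cells, 1 library each, with the parental libraries set beside them. The deposited files list clusters with counts of reads, unique reads, conversion positions and reads with a T-to-C change. Per the study's methods, the authors used molecular identifiers against PCR duplicates, referenced reads to hg19, and called and annotated clusters in each library with PARalyzer in PARpipe; the aligner is not given in the sources used here. The cluster sequences equalled GRCh37 in all 177403 and 199003 clusters on its chromosomes.

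Reads of clusters were summed per gene name and per class, and divided by gene-assigned reads (pseudocount 1 read). Genes with 200 or more reads were kept. Clusters of both libraries overlapping by 1 nt were joined into sites. Intervals are exact binomial for ratios and Wilson for shares, at 95%. In simulated libraries with counting error only, 100% of 4-fold changed genes passed 2-fold. Python 3.11.15, pandas 2.3.3 and SciPy 1.17.1 were used, with GENCODE v44 lifted to GRCh37 for positions. Genes named were KRT19 and HNRNPK, the 10 most extreme in each direction with 1000 or more reads at 3 or more sites, the 10 with most reads, up to 6 of each list (beyond 6 members the 2 highest and 2 lowest), and the 5 and 3 with the largest 3'UTR against intron difference; ERH, EIF4G2, ATF4, BCL2L1, CYTH2, MRPL19 and other site genes came from the sites with most reads. The ranking of sites left out chromosome 8. AXL, CD44 and other markers were fixed as a list. Members and lists were chosen with earlier results of these data known. Some genes that the rule names are not reported here.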

Additional observations from a re-analysis of the deposited data

Results flagged for a closer look

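Reads in clusters with no gene label made up 11.6% of the cytoplasmic and 21.2% of the nuclear reads, and these enter no comparison by gene. Their clusters numbered 38405 and 49205. Among the genes named, 4 were 2-fold or more higher in one fraction in KRT19 KO cells and in the other fraction in parental cells, a difference that was not tested, with 1 library behind each value. USP21, a deubiquitinase gene, had a log2 ratio of 1.42 in KRT19 KO and -3.02 in parental cells, and HMGA1, a chromatin protein gene, 1.48 and -1.63. The snoRNA SNORD21 was at -10.07 and 7.68, with 0 reads in the cytoplasm of KRT19 KO and in the nucleus of parental cells, so that both values depend on the 1 read added. MTRNR2L12 was at 15.82 and -9.52, and its KRT19 KO value rested on the gene label of 1 site. Of all 5145 genes with 200 or more reads in both cell lines, 41 were higher in the cytoplasm in KRT19 KO and in the nucleus in parental cells, and 13 the reverse.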

How the results depend on the processing

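The member counts, the 3 class ratios, the 3'UTR against intron percentage and the ratios of named genes were recomputed with 1 choice changed. The cytosine words, shared sites, positions, gene spans and counts of the gene lists were not recomputed in this way. No paired analysis was possible because each fraction had 1 library and no test was run, and no library could be left out. The number of members at least 2-fold higher in cytoplasm, 1553, was 976 with every cluster counted as 1 and 729 with at least 1000 reads a gene. The number of members at least 2-fold higher in nucleus, 2324, was 277 with every cluster counted as 1, 1480 with at least 2 conversion positions, 1466 centred on the median, 4275 with at least 50 reads and 601 with at least 1000. In the order of unique reads, T-to-C reads, clusters counted as 1, at least 2 conversion positions, leading sites left out and mitochondrial genome left out, the 3'UTR log2 ratio of 2.96 was 2.94, 2.99, 1.93, 2.68, 3.04 and 2.97, the intron ratio of -1.54 was -1.59, -1.38, -0.37, -1.59, -1.06 and -1.53, and the coding ratio of 0.26 was 0.21, 0.71, 1.60, -0.48, 1.26 and 1.37, turning direction once. With clusters of at least 10 reads the intron and coding ratios were -1.74 and 0.11. With 1 label per site, an alternative chosen after seeing the data, the 3 ratios were 2.97, -1.53 and 0.44. With cytoplasmic clusters of fewer than 10 reads left out, also chosen after seeing the data, they were 3.05, -1.77 and 0.27. The percent of genes with a higher 3'UTR than intron log2 ratio, 97.3%, became 95.03% with clusters counted as 1, 94.9% with 2 conversion positions and 99.2% with at least 200 reads in each class. With the leading site of every gene left out of counts and totals, the direction turned for RPS19 (0.53), EIF4A1 (1.201), MT-ND1 (6.54), USP21 (-0.043), HMGA1 (-0.26), PDIA6 (-1.03), HIST1H2BK (-1.67), HIST1H2BJ (-3.12), HIST1H2BD (-1.03) and CD2AP (-0.70). These values also carry the change in the totals. RPS19 kept 120 and 57 reads, which are near-equal shares of the full totals. The causes of these changes were not tested. With 1 library a side, counting error is the only error known.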
